A study of Mus musculus with 407 samples.

Results

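Transcript levels of 8 complement genes, C1qa, C1qb, C1qc, C2, C3, C4b, C6 and C7, were described across 4 mouse muscles and 6 ages. The genes were picked by name from the gene symbols of the count tables, 8 of 24458 symbols, and none of the 8 stood on more than 1 row. Each was counted in all 407 libraries.

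Complement is a cascade of plasma and tissue proteins that tags and lyses targets and recruits phagocytes. C1q, built from the A, B and C chains encoded by C1qa, C1qb and C1qc, recognises the target in the classical pathway. C4 and C2 are then cleaved and their fragments form the convertase that splits C3, the component on which all pathways meet. C6 and C7 act last, joining the membrane attack complex. Hepatocytes are known to make most circulating complement, whereas C1q is known as a macrophage product and C7 as a component made largely outside the liver.

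The muscles were diaphragm, gastrocnemius, soleus and tibialis anterior of wild-type C57BL/6J mice of either sex, aged 6, 12, 18, 21, 24 or 27 months. This made 48 groups of muscle, sex and age, of 6 to 10 libraries each. The mice were bought from 1 supplier at different ages and held for about 12 weeks without any treatment under specific pathogen free conditions. Mice of 1 age group were sampled on 1 day, so age and day of collection cannot be told apart. The labels did not say which muscles came from the same mouse, and the p-values therefore measure the spread between libraries taken as independent. In whole muscle, fewer cells of a type and less RNA per cell cannot be told apart.

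Total counts per library ran from 38600228 to 300391760, with a median of 72791276. Msln, a mesothelial marker, had a 6-month median of 22.4 CPM in male and 22.7 CPM in female diaphragm and of at most 0.529 CPM in any limb muscle of either sex. CPM stands for the count of a gene relative to its library total, scaled by trimmed means over all libraries. Transcripts of liver, such as Alb (albumin), stood out in 5 libraries: male diaphragm at 21 months replicate 3, male diaphragm at 27 months replicate 6, male soleus at 21 months replicate 2, male tibialis anterior at 18 months replicate 6 and female soleus at 18 months replicate 6. Their Alb levels ran from 187.3 to 20990 CPM, against a median of 6.24 CPM over all libraries. In 9 libraries the deviation of each gene from the median of its muscle followed the GC content of the transcript, with a correlation across 6922 genes past 0.5 in size. In the 6 of them from diaphragm, r ran from -0.784 to -0.634, so GC-rich transcripts were low. In the 3 from gastrocnemius, r ran from 0.565 to 0.81. The GC content of the 8 transcripts ranged from 46.3% in C6 and 47.2% in C7 to 59.5% in C1qa. In male diaphragm at 6 months, replicate 2, C1qa stood at 0.914 CPM, C1qb at 0.783 CPM and C4b at 18.7 CPM, while the group medians were 15.2, 20.7 and 112 CPM. In the same library C7 was at 124 CPM against a median of 61.4 CPM. Results of the 8 genes that rest on these libraries are given with and without them below.

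The genes lie on 3 chromosomes of GRCm38.p6, the build of the files. C1qa (chr4:136895916-136898844), C1qc (chr4:136889801-136892936) and C1qb (chr4:136880126-136886200) lie side by side on the minus strand of chromosome 4. C4b (chr17:34728139-34743902), C2 (chr17:34862602-34882100) and C3 (chr17:57203967-57228136) are on the minus strand of chromosome 17. C6 (chr15:4727067-4804045, plus strand) and C7 (chr15:4987750-5063773, minus strand) are neighbours on chromosome 15. Of all 76-base windows of the C4b transcript, 23.2% also occurred in its paralogue C4a, so reads may be split between them and the level of C4b is uncertain to that extent. C4a itself was low, with medians of 0.0585 to 0.329 CPM by muscle and sex. C2 shares 55.5% of its windows with the overlapping gene model Gm20547, and its exons overlap 161 exon bases of Zbtb12 on the other strand, so the level of C2 is uncertain too. The other 6 transcripts shared no such window with another gene.

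Sequences upstream of the start site are shown for C7, whose level separated the sexes, for C1qb and C1qc, whose levels ran together over the groups, and for C3, the most abundant of the 8. They come from RefSeq promoter windows on GRCm38.p6, which held 5 of the 8 genes, and these 4 lie on the minus strand. The window of the fifth, C6, on the plus strand, held no match to the motifs below and is not shown. C1qa, C2 and C4b had no entry. Bases inside any annotated exon were left out, which leaves 99 bases for C1qc, and all are written 5′ to 3′ as transcribed. The capitals mark matches, on either strand, to 1 of 3 motifs: TTCNNNGAA of STAT factors, GAGGAA of the macrophage factor PU.1, and TTGCGNAA of C/EBP factors. No 2 matches overlapped.
C7, chr15:5063774-5064023: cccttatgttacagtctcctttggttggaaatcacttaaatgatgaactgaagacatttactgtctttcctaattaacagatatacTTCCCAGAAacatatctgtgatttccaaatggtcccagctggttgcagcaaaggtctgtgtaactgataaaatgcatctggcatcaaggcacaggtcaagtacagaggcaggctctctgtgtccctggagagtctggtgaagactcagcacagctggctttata
C1qb, chr4:136886201-136886450: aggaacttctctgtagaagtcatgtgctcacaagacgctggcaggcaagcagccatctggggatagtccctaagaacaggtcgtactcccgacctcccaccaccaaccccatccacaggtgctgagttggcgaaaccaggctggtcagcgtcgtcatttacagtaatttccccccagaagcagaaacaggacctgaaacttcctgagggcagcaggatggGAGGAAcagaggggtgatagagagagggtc
C1qc, chr4:136893066-136893164: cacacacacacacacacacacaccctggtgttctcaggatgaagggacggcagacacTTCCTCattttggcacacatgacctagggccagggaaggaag
C3, chr17:57228137-57228386: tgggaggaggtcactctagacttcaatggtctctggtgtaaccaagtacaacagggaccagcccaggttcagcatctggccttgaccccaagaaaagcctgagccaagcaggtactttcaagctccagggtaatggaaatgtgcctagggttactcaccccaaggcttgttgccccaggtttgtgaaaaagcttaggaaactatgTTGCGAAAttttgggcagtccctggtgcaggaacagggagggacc

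The match in C7 ended 156 bases before the start site, that in C1qb 25 bases, that in C1qc 188 bases and that in C3 38 bases before it. Distances were counted to the start site of the promoter window, which for C1qc lies inside the gene span given above. Among 32851 promoter windows of 250 bases, 7.0% held TTCNNNGAA, 23.3% held GAGGAA and 0.7% held TTGCGNAA. These matches describe letters in the sequence and not binding.

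At 6 months the 8 genes differed widely in level and were highest in the diaphragm. Compared per kb of exon, C3 had the highest median in all 4 muscles of both sexes, from 14.1 CPM per kb in male soleus to 257.3 CPM per kb in female diaphragm, and C6 the lowest, from 0.0129 CPM per kb in female tibialis anterior to 0.193 CPM per kb in male diaphragm. In male gastrocnemius the order of the medians was C3 at 29.1, C7 at 11.9, C1qb at 7.36, C1qc at 7.01, C1qa at 6.10, C4b at 5.12, C2 at 1.38 and C6 at 0.0596 CPM per kb. The ranges of the 3 C1q genes overlapped each other and those of C7 and C4b, whereas C3 lay above all others and C6 below all others. In female gastrocnemius C7, at 0.596 CPM per kb, took the seventh place, and its range lay below that of C2, whose median was 1.25 CPM per kb.

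**Figure D1:**
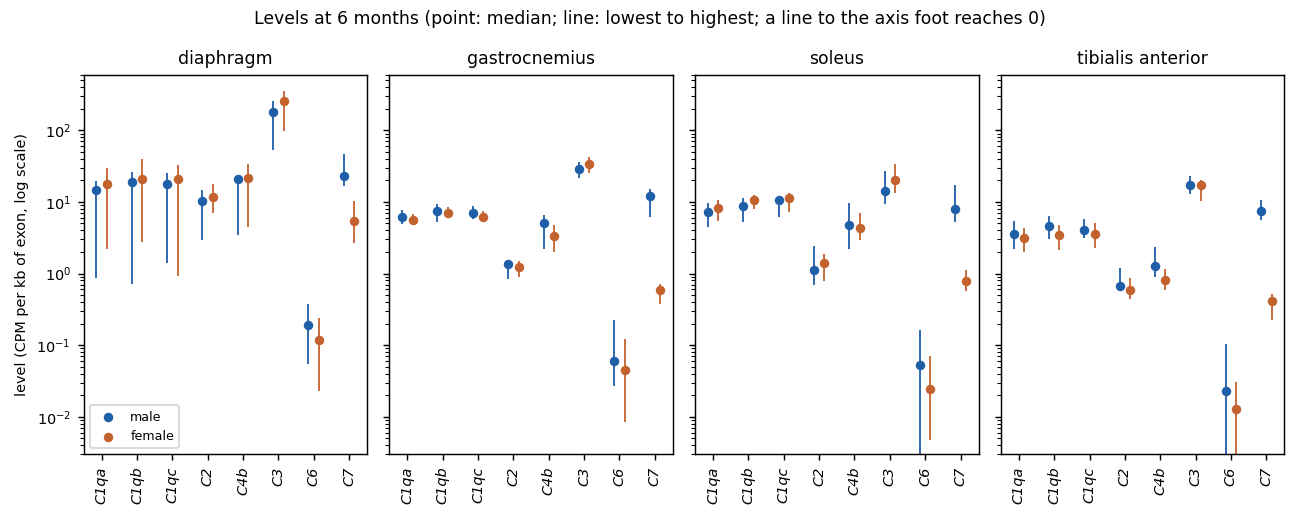
Levels of the 8 genes at 6 months in CPM per kb of exon (log axis), by muscle and sex. Points are medians of 8 libraries and lines run from the lowest to the highest library. C3 lies highest and C6 lowest in every panel, and C7 is the gene whose male and female points stand farthest apart.

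Relative to the gastrocnemius, 7 of the 8 genes were higher in male diaphragm and all 8 in female diaphragm past a fold of 1.5 at an adjusted p under 0.05 (edgeR quasi-likelihood test with Benjamini-Hochberg adjustment), in fits that called 45.5% and 50.5% of all genes for this contrast. C2 in male diaphragm had a lowest, median and highest level of 8.14, 28.3 and 40.3 CPM per library and was 7.19-fold higher than in gastrocnemius, with a log2 difference of 2.85 (SE 0.27). In females the fold for C2 was 9.38. C3 was 5.92-fold higher in male and 7.31-fold higher in female diaphragm, and C4b 3.604-fold and 6.40-fold. The 3 C1q genes were 2.04 to 2.30-fold higher in males and 3.18 to 3.35-fold higher in females. Without the 9 GC-shifted libraries the log2 difference of C4b in males went from 1.85 to 2.20 and that of C1qa from 1.03 to 1.40. The 16 macrophage markers listed for comparison summed to 274 to 375.9 CPM in male diaphragm and to 77.2 to 111.6 CPM in male gastrocnemius at this age. Of the 11 mesothelial markers listed, the 10 with counts summed to 190.5 to 366 and to 2.21 to 3.42 CPM. The part of these cells in the differences was not tested.

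The tibialis anterior stood below the gastrocnemius. C4b there had a lowest, median and highest level of 3.14, 4.35 and 6.21 CPM in females at 6 months, against 10.6, 17.7 and 25.3 CPM in gastrocnemius, and the groups did not overlap. Its log2 difference was -2.00 (SE 0.27, adjusted p = 3.86e-10) in females and -1.64 (SE 0.32, adjusted p = 4.53e-05) in males. All 8 genes passed the limits in female and 3 (C4b, C2 and C1qa) in male tibialis anterior, where the fits called 7.39% and 5.87% of genes. Of the 8 in females, C6 was near the floor, with a median count of 3 in this muscle over all ages. C7 lay at the limits, 1.504-fold lower at an adjusted p of 0.0488. In the soleus C3 was lower than in gastrocnemius, by a log2 difference of -0.85 in males (adjusted p = 0.00363) and -0.62 in females (adjusted p = 0.0152), and C1qc was 1.75-fold higher in females (adjusted p = 0.00964). These were the only calls in soleus, where 24.5% and 25.4% of genes passed in males and females.

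C7, which binds the nascent attack complex and lets it insert into membranes, was far higher in males than in females in every muscle. In the gastrocnemius its lowest, median and highest level over all ages was 15.8, 30.4 and 45.7 CPM in 52 male libraries and 0.964, 1.59 and 3.04 CPM in 52 female libraries. In the soleus the values were 11.5, 26.7 and 61.1 CPM in males and 0.755, 2.17 and 3.90 CPM in females, and in the tibialis anterior 10.8, 17.8 and 29.5 CPM in males and 0.569, 1.15 and 2.36 CPM in females. No female library reached the lowest male library in these 3 muscles. In the diaphragm the male libraries ran from 26.2 to 123.7 CPM with a median of 53.6 CPM and the female libraries from 4.63 to 29.02 CPM with a median of 12.1 CPM. There 2 female libraries lay above the lowest male library, both of them GC-shifted.

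**Figure D2:**
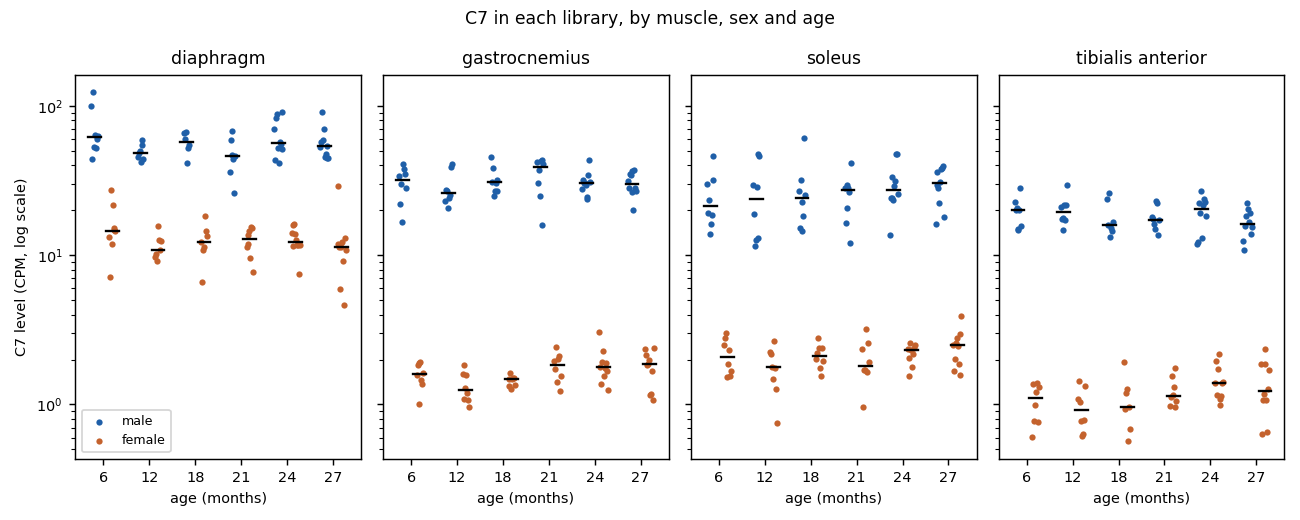
C7 level in CPM (log axis) in each library by age, with 1 panel per muscle. Blue points are male and orange points female libraries, and black bars are group medians. In the 3 limb muscles the points of the sexes do not overlap at any age, and in the diaphragm only 2 female points reach the lowest male point.

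Averaged over the 6 ages, the female minus male log2 difference of C7 was -4.24 (SE 0.07, adjusted p = 8.32e-72) in gastrocnemius, -3.97 (SE 0.09, adjusted p = 4.24e-63) in tibialis anterior, -3.68 (SE 0.11, adjusted p = 1.72e-50) in soleus and -2.15 (SE 0.09, adjusted p = 6.5e-36) in diaphragm. In fold terms C7 was 19.0, 15.7, 12.8 and 4.42 times as high in males. Of the genes tested in each muscle, 39, 33, 30 and 93 had a larger difference between the sexes. At 6 months alone the difference was between -4.25 and -2.15 in the 4 muscles, and C7 was the only 1 of the 8 genes called at that age, where 0.421% of genes passed in diaphragm, 3.85% in tibialis anterior, 2.40% in soleus and 5.07% in gastrocnemius. The sample numbers in the labels fall into 4 separate runs. Within each run that held both sexes the difference of C7 in log2 CPM stayed between -4.46 and -2.01. The summed fibroblast and macrophage markers did not separate the sexes, at 2077 to 2460 and 77.2 to 111.6 CPM in male and 1987 to 2445 and 74.3 to 113.7 CPM in female gastrocnemius at 6 months.

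C6, the partner of C7 in the attack complex, was also lower in females over all ages, but at low counts. The log2 difference was -1.37 (SE 0.20, adjusted p = 6.28e-09) in gastrocnemius, where the median counts per library were 34 in males and 15 in females. In soleus it was -1.25 (adjusted p = 0.00464) at median counts of 12 and 4, and in tibialis anterior -1.14 (adjusted p = 0.00114) at 5 and 3. C6 was at 0 in 18 of 103 soleus and 13 of 102 tibialis anterior libraries, and a count of 0 there allowed a level of up to 0.0311 to 0.0692 CPM (3 counts, counting error only). In diaphragm the difference of -1.10 (adjusted p = 0.00192) became -0.26 (adjusted p = 0.317) without the liver libraries. C6 and C7 were thus the 2 genes past both limits over all ages in each muscle, where 5.18% of genes passed in diaphragm, 5.27% in tibialis anterior, 3.97% in soleus and 8.17% in gastrocnemius. C4b was lower in females by a log2 difference of -0.37 in gastrocnemius (adjusted p = 0.0011), -0.33 in soleus (adjusted p = 0.0209) and -0.36 in tibialis anterior (adjusted p = 0.0173), under the fold limit. For the C1q genes, C2 and C3 the log2 difference stayed between -0.18 and 0.20 in all muscles, and no adjusted p was below 0.05.

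With age, 18 of the 63 combinations of gene, muscle and sex that could be tested passed the limits at some older age against 6 months, 15 of them rising and 3 falling. Over all genes 7.55% of such combinations passed, 5.11% rising and 2.44% falling. C6 in female tibialis anterior was too low to test. In tibialis anterior 5 of 7 genes were called in females and 6 of 8 in males, where 9.25% and 8.53% of all genes were called. Without replicate 8 of the male 24-month group, described below, 1 of the 6 male calls, C4b, was left. In diaphragm 3 of 8 genes were called in males and 1 of 8 in females (11.0% and 2.95% of all genes), and in female gastrocnemius 1 and in female soleus 2 (9.44% and 8.52%). Male gastrocnemius and male soleus had 0 calls (8.06% and 2.85% of all genes). At an unadjusted p below 0.05 and a fold above 1.5, 2 genes passed in male gastrocnemius and 3 in male soleus. DESeq2 also called 0 in both, and limma-voom 1 in gastrocnemius and 0 in soleus. All older ages were compared with the same 6-month libraries and so share them.

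**Figure D3:**
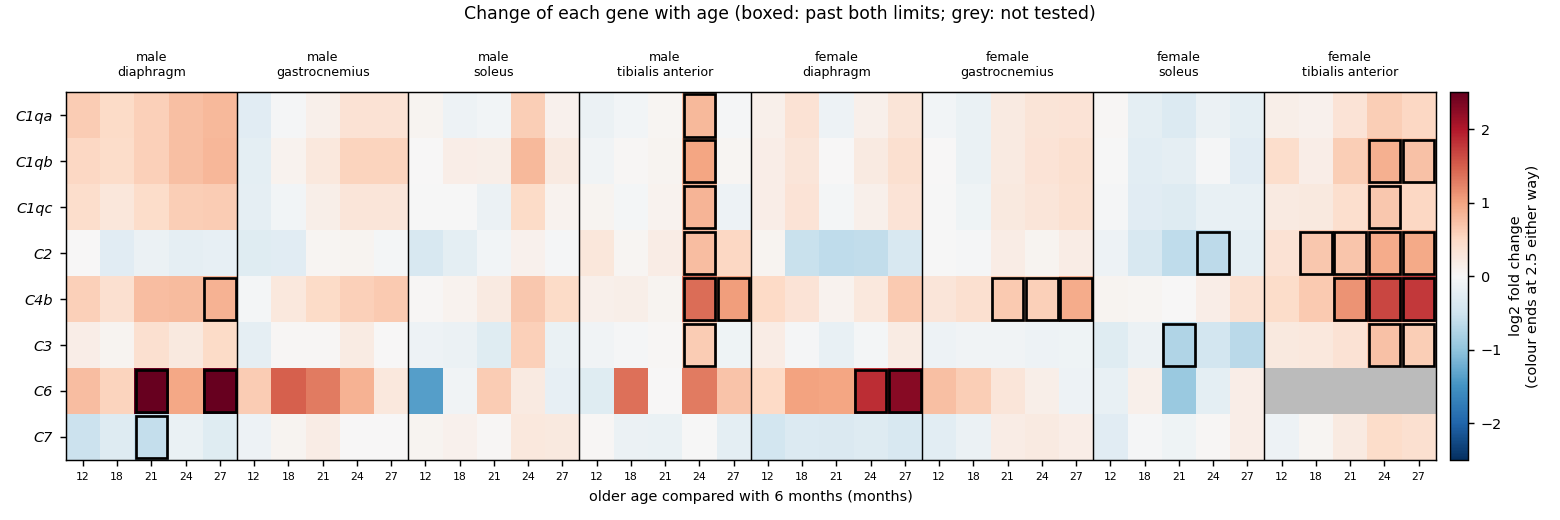
Log2 fold change of each gene (rows) at each of the 5 older ages against 6 months in the 8 combinations of sex and muscle (columns). Red is higher and blue lower than at 6 months, boxes mark changes past both limits and grey marks C6 in female tibialis anterior, which was not tested. C4b holds boxes in 4 of the 8 combinations. The male tibialis anterior boxes at 24 months other than that of C4b are lost without replicate 8.

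The C1q chains rose in the tibialis anterior at 24 months. C1qb in female tibialis anterior had a lowest, median and highest level of 2.29, 3.74 and 5.13 CPM at 6 months, 3.89, 6.56 and 18.6 CPM at 24 months and 3.395, 6.02 and 10.4 CPM at 27 months. The older groups lay higher but overlapped the 6-month group. The log2 fold change was 0.88 (SE 0.24, adjusted p = 0.00652) at 24 and 0.74 (SE 0.24, adjusted p = 0.0178) at 27 months. C1qc rose by 0.68 (adjusted p = 0.0284) at 24 months. Replicate 9 of that group was the highest for both, and without it C1qb was at 0.58 (adjusted p = 0.0356), under the fold limit, and C1qc at 0.46 (adjusted p = 0.111). C1qa had 0.61 (adjusted p = 0.0626) at 24 months and was not called. Among males, the changes in tibialis anterior at 24 months were 0.82 (adjusted p = 0.032) for C1qa, 0.98 (adjusted p = 0.0179) for C1qb and 0.85 (adjusted p = 0.021) for C1qc. Without replicate 8 of that group, described below, the values were 0.40 (adjusted p = 0.212), 0.42 (adjusted p = 0.174) and 0.45 (adjusted p = 0.134), and none passed. At 27 months in the same muscle the 3 values were between -0.12 and 0.04.

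In male diaphragm the C1q genes moved upwards without passing. C1qb ran from 0.783 to 28.5 CPM at 6 months (median 20.7) and from 11.1 to 49.9 CPM at 27 months (median 35.3), with a log2 fold change of 0.83 (SE 0.30, adjusted p = 0.0699). Both low ends were GC-shifted libraries, and without them the ranges were 16.8 to 28.5 and 21.4 to 49.9 CPM. The change of C1qb was then 0.74 (SE 0.19, adjusted p = 0.0136) and that of C1qa 0.74 (SE 0.17, adjusted p = 0.00769), and both passed. With all libraries, 1 run of label numbers held 6 libraries at 27 and 2 at 6 months. Within it the difference in log2 CPM was 0.82 for C1qa and 0.70 for C1qb. Within the run that held 1 and 6 it was -0.81 and -0.18, the 1 being GC-shifted. Without the GC-shifted libraries only the first of these runs held both ages. Of the 16 macrophage markers, 5 rose and 0 fell in male diaphragm at 27 months, their sum being 274 to 375.9 CPM at 6 and 290.2 to 658.2 CPM at 27 months. The part of macrophage number in these changes was not tested.

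C4b, the mouse gene for the C4 that forms the classical convertase, rose with age in 4 of the 8 combinations. In female tibialis anterior its lowest, median and highest level was 3.14, 4.35 and 6.21 CPM at 6 months, 6.47, 9.38 and 11.6 CPM at 21 months, 5.40, 11.2 and 28.4 CPM at 24 months and 7.93, 14.0 and 32.2 CPM at 27 months. The 6-month group did not overlap those at 21 and 27 months. The log2 fold change was 1.12 (SE 0.28, adjusted p = 0.00501) at 21, 1.67 (SE 0.27, adjusted p = 1.27e-05) at 24 and 1.77 (SE 0.27, adjusted p = 2.68e-06) at 27 months, a 3.41-fold rise. C4b was called at these 3 ages whichever library was left out.

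**Figure D4:**
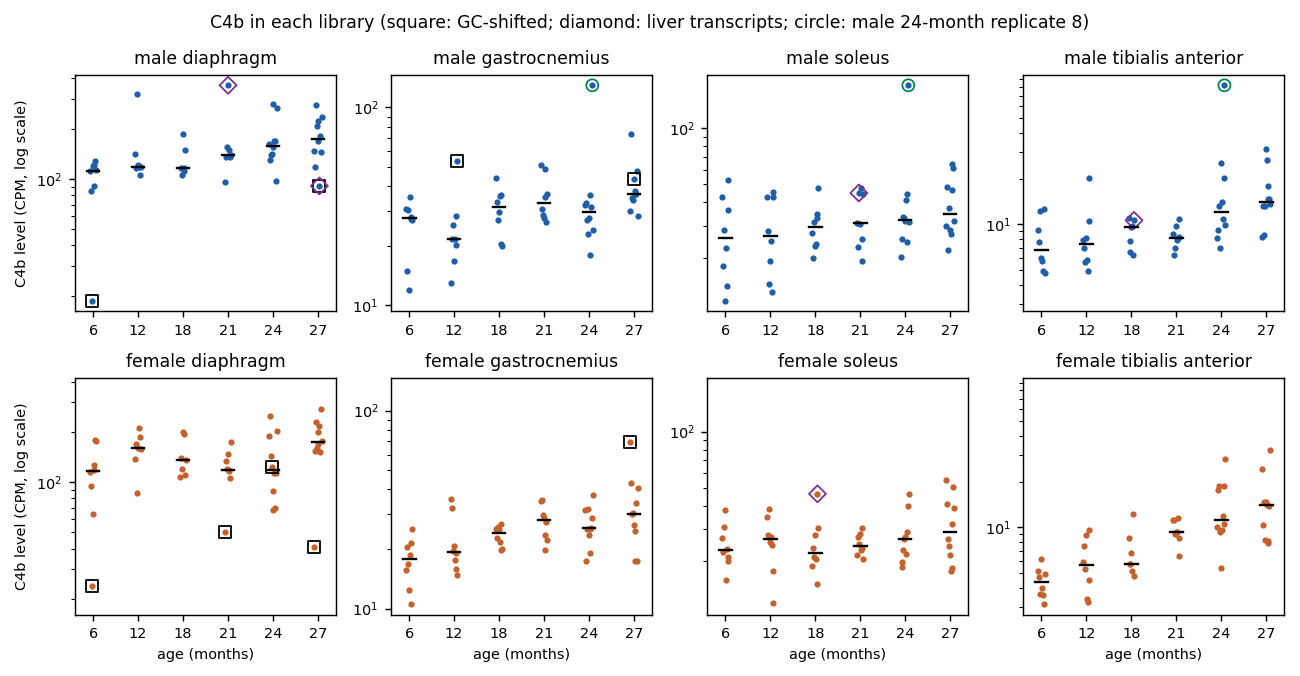
C4b level in CPM (log axis, shared by the panels of a muscle) in each library by age, in males (top) and females (bottom). Black bars are medians, squares mark GC-shifted libraries, diamonds libraries with liver transcripts and circles replicate 8 of the male 24-month limb groups. In female tibialis anterior all libraries at 27 months lie above the highest at 6 months, and in male limb muscles replicate 8 lies above every other library.

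C4b in male tibialis anterior was at 4.76, 6.81 and 12.7 CPM at 6 months and at 8.30, 14.1 and 31.2 CPM at 27 months, and the groups overlapped. Its log2 fold change was 1.39 (SE 0.35, adjusted p = 0.00496) at 24 months, 0.74 (adjusted p = 0.0485) without replicate 8, and 1.05 (SE 0.35, adjusted p = 0.0287) at 27 months. The 27-month call was lost without any 1 of 5 of the 51 libraries. The value without replicate 8 lay near the limit. It took the dispersion and the prior spread from the full fit. In female gastrocnemius it rose by 0.66 (adjusted p = 0.0233) at 21, 0.59 (adjusted p = 0.0289) at 24 and 0.93 (SE 0.20, adjusted p = 0.000362) at 27 months, with medians of 17.7 CPM at 6 and 30.2 CPM at 27 months and ranges of 10.6 to 25.3 and 17.3 to 69.4 CPM. The highest of these was GC-shifted, and without such libraries the change at 27 months was 0.74 (adjusted p = 0.00136). With the liver level as a covariate the changes were 0.47 (adjusted p = 0.105) at 21, 0.71 (adjusted p = 0.00475) at 24 and 0.88 (adjusted p = 0.000238) at 27 months, so the 21-month call was lost. The liver transcripts summed to 8.44 to 89.4 CPM at 6 and 23.15 to 181.1 CPM at 21 months in this muscle, and 15 of the 17 tested rose at some age. Without replicate 5 of the 6-month group the changes were 0.58 (adjusted p = 0.0549) at 21 and 0.51 (adjusted p = 0.0701) at 24 months, and neither passed. The 24-month call was lost without any 1 of 8 of the 52 libraries. Within the run of label numbers that held 5 libraries at 27 and 6 at 6 months the difference in log2 CPM was 1.28. It was 0.12 within the run that held 5 and 2. With the run as a covariate the 27-month change was 0.93 (adjusted p = 0.000386). In male diaphragm the change at 27 months was 0.86 (SE 0.27, adjusted p = 0.0357), and 0.76 (adjusted p = 0.0117) without GC-shifted and liver libraries. With the run of label numbers as a covariate it was 0.87 (adjusted p = 0.302), and the call was lost. The call was also lost without any 1 of 5 of the 48 libraries. The difference in log2 CPM was 0.92 within the run that held 6 libraries at 27 and 2 at 6 months and 0.11 within the run that held 1 and 6. In male gastrocnemius, in the soleus of either sex and in female diaphragm C4b passed at no age, with a log2 fold change at 27 months of 0.66 (95% interval 0.12 to 1.20) in male gastrocnemius, 0.48 (-0.14 to 1.10) in male soleus, 0.39 (-0.02 to 0.81) in female soleus and 0.65 (0.11 to 1.20) in female diaphragm.

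C2, whose fragment carries the protease of the classical convertase, rose beside C4b in female tibialis anterior. Its lowest, median and highest level there was 1.21, 1.62 and 2.40 CPM at 6 months and 1.79, 3.09 and 4.45 CPM at 27 months, with an overlap of the groups. The log2 fold change was 0.68 (adjusted p = 0.0289) at 18, 0.69 (adjusted p = 0.011) at 21, 0.92 (SE 0.18, adjusted p = 0.000218) at 24 and 0.94 (SE 0.18, adjusted p = 0.000104) at 27 months. In male tibialis anterior C2 rose by 0.78 (adjusted p = 0.0245) at 24 months, and by 0.47 (adjusted p = 0.123) without replicate 8. In female soleus C2 fell, with a log2 fold change of -0.66 (SE 0.25, adjusted p = 0.0462) at 24 months, when the range went from 2.20 to 5.28 CPM (median 3.88) to 1.16 to 4.06 CPM (median 2.18). This call was lost without any 1 of 12 of the 51 libraries. It was also lost with the liver covariate (-0.63, adjusted p = 0.0622) and without the expression filter (-0.65, adjusted p = 0.0569). At 27 months the change was -0.25 (adjusted p = 0.515). In female diaphragm C2 was at -0.74 (SE 0.23, adjusted p = 0.0336) at 24 months once GC-shifted libraries were left out.

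C3 was called as rising in female tibialis anterior and as falling in female soleus. The difference between these 2 muscles was not tested. It ran in female tibialis anterior from 52.4 to 105.2 CPM (median 87.5) at 6 months and from 93.2 to 258.6 CPM (median 131.6) at 24 months, a log2 fold change of 0.74 (SE 0.18, adjusted p = 0.00231). At 27 months it was 0.61 (SE 0.18, adjusted p = 0.00876). In female soleus it ran from 69.2 to 175.1 CPM (median 104.1) at 6 months and from 50.1 to 84.6 CPM (median 63.5) at 21 months, a change of -0.76 (SE 0.28, adjusted p = 0.0417). With the run covariate this was -0.68 (adjusted p = 0.0588), and the call was lost. It was also lost without any 1 of 7 of the 51 libraries. At 27 months the change in soleus was -0.67 (adjusted p = 0.0643), and -0.67 (adjusted p = 0.026) when the library with liver transcripts was left out. C3 rose in male tibialis anterior by 0.63 (adjusted p = 0.0483) at 24 months, and by 0.20 (adjusted p = 0.382) without replicate 8.

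Several marker lists moved in the same groups. By 27 months 16 of the 17 liver transcripts tested rose in female tibialis anterior, with a median log2 fold change of 3.50, and their sum went from 1.86 to 27.6 CPM at 6 months to 5.51 to 768.7 CPM at 27 months. At 24 months the sum was 3.94 to 75.95 CPM. No library of female tibialis anterior was picked as a liver library, so there is no fit of this muscle without such libraries. With the liver level as a covariate the 27-month change of C4b was 1.51 (adjusted p = 8.04e-05), that of C2 0.92 (adjusted p = 0.000587) and that of C3 0.49 (adjusted p = 0.0615), so C3 lost its call at that age. Of 16 macrophage markers 7 rose and 0 fell in this muscle, with a sum of 35.9 to 67.9 CPM at 6 and 54.0 to 137.6 CPM at 27 months. Of 12 interferon-induced genes 7 rose and 0 fell, with a sum of 31.7 to 46.7 and 36.9 to 244.4 CPM. In female soleus 8 of 14 fibroblast markers fell by 27 months, their sum being 2191 to 3491 CPM at 6 and 1164 to 2393 CPM at 27 months. In male tibialis anterior 9 of the 14 fell, from 1384 to 1975 CPM to 679.6 to 1324 CPM. The macrophage marker Adgre1 and the fibroblast marker Pdgfra were detected in all libraries of these tibialis anterior groups. The part of these cells in the changes of C2, C3 and C4b was not tested.

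C6 rose with age in female diaphragm. Its lowest, median and highest level was 0.0796, 0.408 and 0.841 CPM at 6 months, 0.264, 1.34 and 6.46 CPM at 24 months and 1.46, 2.20 and 3.18 CPM at 27 months. The 27-month libraries all lay above the 6-month libraries. The counts behind them were 6 to 73 at 6 months and 138 to 317 at 27 months. The log2 fold change was 1.85 (adjusted p = 0.00368) at 24 and 2.27 (SE 0.40, adjusted p = 0.0007) at 27 months, a 4.82-fold rise, and it was called at both ages whichever library was left out. Without GC-shifted libraries it was 2.14 (SE 0.44, adjusted p = 0.00249) at 27 months. The 18 liver transcripts summed to 21.9 to 227.9 CPM at 6 and 19.5 to 289.7 CPM at 27 months in these libraries, and of the 17 tested 0 rose and 1 fell at some age.

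**Figure D5:**
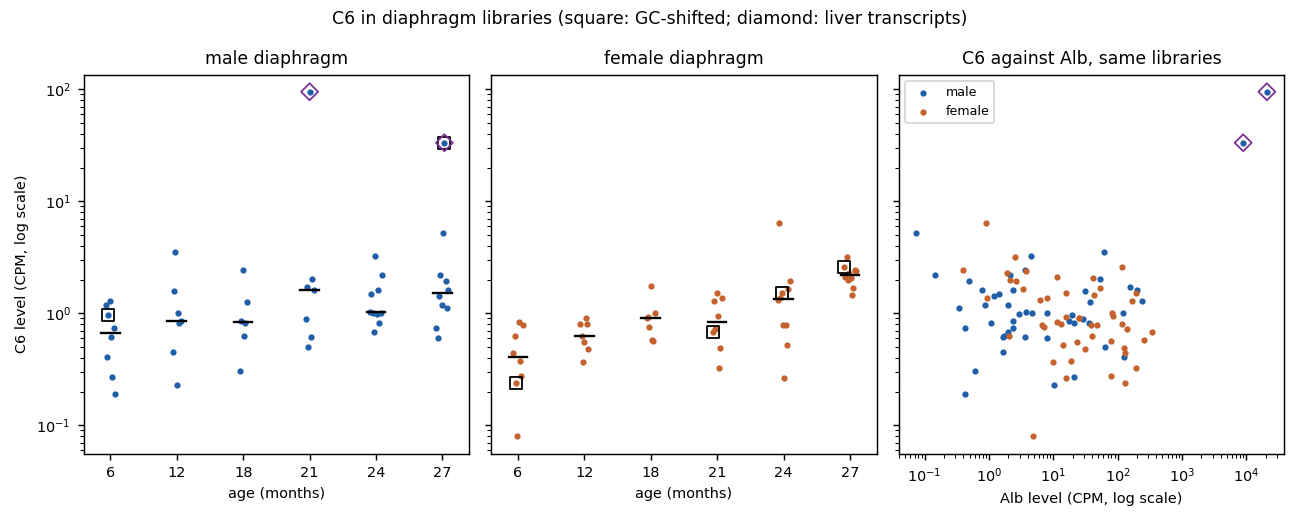
C6 level in CPM (log axis) in each male and female diaphragm library by age, and against Alb (log axes) in the same libraries. Black bars are medians, diamonds mark libraries with liver transcripts and squares GC-shifted libraries. The 2 male libraries with the highest Alb, 8988 and 20990 CPM, are the 2 with the highest C6, 33.3 and 95.2 CPM, while the rise in females occurs among libraries without such Alb levels.

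In male diaphragm the 21-month call of C6 rested on 1 library with liver transcripts, and the 27-month call depended on the libraries and covariates used. C6 ran from 0.191 to 1.29 CPM (median 0.672) at 6 months, from 0.495 to 95.2 CPM (median 1.61) at 21 months and from 0.602 to 33.3 CPM (median 1.52) at 27 months, and the highest value at each of these older ages was a liver library, the latter of them also GC-shifted. With all libraries the log2 fold change was 4.38 (SE 0.95, adjusted p = 0.00465) at 21 and 2.80 (SE 0.86, adjusted p = 0.0362) at 27 months. Leaving out replicate 3 alone brought the 21-month value to 0.78 (adjusted p = 0.494). At 27 months the value was 1.29 (SE 0.46, adjusted p = 0.0426) without all liver libraries and 2.12 (adjusted p = 0.00386) with the liver level as a covariate, and C6 was called in both. It was 1.32 (adjusted p = 0.253) without replicate 6 alone, 1.40 (adjusted p = 0.227) without GC-shifted libraries and 3.16 (adjusted p = 0.104) with the run of label numbers as a covariate, and it was called in none of these. The values without replicate 3 or 6 alone took the dispersion and the prior spread from the full fit and estimated only the gene's own spread anew. Those without all liver or GC-shifted libraries came from new fits of all genes. In the value without replicate 6 alone, replicate 3 at 21 months was still part of the fit. The 27-month minus 6-month difference in log2 CPM was 1.04 within the run that held 6 libraries at 27 and 2 at 6 months, and 5.89 within the run that held 1 and 6, the 1 being replicate 6. C3 and C4b were also at their highest of that group in the 21-month liver library, at 2639 and 363.8 CPM against medians of 1109 and 139.6 CPM, whereas C7 there was at 47.0 CPM beside a median of 46.4 CPM.

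C7 changed little with age in either sex. Its only call was in male diaphragm at 21 months, with a log2 fold change of -0.60 (adjusted p = 0.0442) from a median of 61.4 to 46.4 CPM. Without the GC-shifted libraries, among them the 6-month library at 124 CPM, it was -0.41 (adjusted p = 0.129). At 27 months the value of C7 lay between -0.40 and 0.40 in all 8 combinations. The outermost ends of the 95% intervals were -0.84 in female diaphragm and 0.84 in female tibialis anterior.

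Replicate 8 of the male 24-month limb groups stood apart in 7 of the 8 genes. In gastrocnemius, soleus and tibialis anterior in turn, C1qb was at 42.7, 74.4 and 35.7 CPM against medians of 8.75, 10.4 and 6.13 CPM in the other 9 libraries, and C4b at 129.4, 170.9 and 82.3 CPM against 27.6, 31.6 and 10.8 CPM. C3 was at 477.2, 550.5 and 441.3 CPM against 131.1, 69.1 and 109.2 CPM. These values were above every other library of their group. C7 was at 1.44, 1.84 and 1.20 times the median of the others, and in soleus and tibialis anterior within their range. The macrophage markers of replicate 8 summed to 329.5, 872.1 and 484.2 CPM against medians of 91.9, 117.1 and 87.1 CPM, and the interferon-induced genes to 174.7, 846.1 and 462.9 CPM against 38.6, 43.2 and 36.9 CPM. Without it the calls in male tibialis anterior at 24 months, where 5.34% of all genes passed, went from 6 to 1, C4b. Whether the 3 libraries came from 1 mouse is not given in the labels, and the part of the markers in these levels was not tested.

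By the shape of the change, 8 combinations were classed as rising in a straight line against the logarithm of age, and none as logistic, while over all genes 3.88% of combinations were classed as age-related. These were C4b in male diaphragm, male tibialis anterior, female gastrocnemius and female tibialis anterior, C6 in female diaphragm, and C2, C3 and C1qb in female tibialis anterior. Under stricter margins 5 remained, namely C6 in female diaphragm, C4b in female gastrocnemius and C4b, C2 and C3 in female tibialis anterior.

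Differences of the age change between the sexes were tested directly. Only C6 in diaphragm at 21 months passed, with a female minus male log2 difference of -3.39 (SE 0.97, adjusted p = 0.0377) in a contrast that called 2.28% of genes, and it was 0.21 (adjusted p = 0.949) without the liver libraries. The contrasts at 12, 18, 24 and 27 months called 0, 0.00602, 0.229 and 0% of genes there and 0 of the 8. In gastrocnemius, soleus and tibialis anterior 0 of the 8 genes passed at any age by edgeR or limma-voom. From 12 to 27 months those contrasts called 0.00636, 0.146, 4.28, 3.94 and 1.60% of all genes in gastrocnemius, 0, 0.0252, 3.67, 9.18 and 0.855% in soleus, and 0.0201, 0.100, 4.42, 6.14 and 1.73% in tibialis anterior. At an unadjusted p below 0.05 at some age there were 0, 4 and 3 of the 8. C4b in tibialis anterior differed by 1.05 (95% interval 0.14 to 1.97, adjusted p = 0.213) at 21 months and C3 by 0.71 (0.15 to 1.28, adjusted p = 0.187) at 27 months. The larger count of calls in female tibialis anterior at 27 months is therefore no tested difference between the sexes.

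Between muscles, the change from 6 to 27 months of C6 was larger in female diaphragm than in female gastrocnemius by a log2 difference of 2.39 (SE 0.74, adjusted p = 0.0463), in a contrast that called 3.20% of genes. Without GC-shifted and liver libraries the difference was 2.32 (adjusted p = 0.0379). In males C6 had 2.53 (adjusted p = 0.129) for the same contrast and 1.07 (adjusted p = 0.63) without those libraries. No other gene of the 8 passed in any muscle of either sex, where the contrasts called 5.51% of genes in female soleus, 0.570% in female tibialis anterior, 3.44% in male diaphragm, 0.594% in male soleus and 0% in male tibialis anterior. At an unadjusted p below 0.05, 6 genes passed in females and 1 in males, and limma-voom called 1 and 0.

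Over the 48 group means of log2 CPM, C1qa, C1qb and C1qc correlated with each other at 0.983 to 0.994, and C2 with C3 at 0.970. C4b correlated with the C1q genes at 0.964 to 0.977. C7 stood apart, with correlations of 0.391 to 0.598 to the other 7. The points share muscles and libraries, so these values are descriptions. Among other genes, those most like C1qa were Cotl1 (0.986), Csf1r (0.984) and Laptm5 (0.983), most like C1qb Cotl1 (0.984), Tuba1b (0.982) and Laptm5 (0.982), and most like C1qc Csf1r (0.983), Cotl1 (0.980) and Sirpa (0.980). C2 was most like C1s1 (0.992), which encodes the C1 protease that cleaves it, then Gpm6a (0.988) and Wnt2b (0.987). C3 was most like Cd74 (0.984), H2-Ab1 (0.983) and Tmem176b (0.982). C4b was most like Ifi27l2a (0.974), Slc11a1 (0.973) and Arf3 (0.969). The nearest genes were less close for C6, with Aox3 (0.926), Apoe (0.924) and Zfp217 (0.918), and for C7, with Mtss1 (0.896), Cish (0.891) and Mchr1 (0.883).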

How the data were processed

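Total RNA of 4 muscles, freed of ribosomal RNA, was sequenced in strand-specific libraries. The authors deposited raw read counts per gene for each of 407 libraries, made with the ArrayStudio pipeline on mm10 with their own gene model derived from RefSeq. Its version and the strand setting are not given in the sources used here. For 329 symbols on several rows the row with most counts was kept, which left out 0.03355% of the counts.

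Counts were fitted per sex and muscle (8 fits of 48 to 52 libraries, 14487 to 16193 genes after filterByExpr) with TMM scaling in edgeR 4.0.16 (R 4.3.3). Older ages were each set against 6 months in quasi-likelihood tests, Benjamini-Hochberg adjusted over all genes tested, and a gene was called past a fold of 1.5 at an adjusted p under 0.05. Interactions of sex and age (4 fits) and of muscle and age (2 fits) were called by adjusted p alone. Intervals are normal 95% intervals from the standard error. Classes compared the BIC of a constant, a line and a logistic curve, with margins of 6 and 2, or 10 and 4 as the stricter choice. Levels are CPM, with a prior count of 0.5 for log2. Liver libraries lay more than 3 median absolute deviations above the median of their muscle and sex in the log2 sum of liver transcripts. The threshold for GC-shifted libraries, and leaving them out, were chosen after seeing the data. Values without 1 named library came from a refit of the 8 genes alone. It kept the dispersion and the prior spread of the full fit, while the own spread of each gene was estimated anew. They were adjusted with the p-values of all other genes from the full fit. Values without all liver or GC-shifted libraries came from new fits of all genes, so the 2 kinds are not alike. Exon lengths and GC content came from GENCODE, with 95.6% of symbols matched. Limma 3.58.1 and DESeq2 1.42.0 served as alternatives, and the scripts were tested on simulated data.

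All 8 genes were named in every comparison, other complement genes where called in at least 3 of the 8 fits, and the 3 genes most correlated with each of the 8. The genes, lists and tests were chosen with earlier results of these data known.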

Additional observations from a re-analysis of the deposited data

Results flagged for a closer look

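In 72 of the 378 combinations of gene and group tested, the highest or lowest library stood apart from the rest of its group by Dixon's ratio of gap to range. Chance alone gives about 1 in 20 such combinations, and the 8 genes share their libraries, so the combinations are not independent.

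GC-shifted libraries were among them. Female diaphragm at 21 months, replicate 0, had C1qa at 3.58 CPM (group median 16.8), C1qc at 1.83 CPM (group median 24.0) and C4b at 50.1 CPM (group median 118.6). Female diaphragm at 27 months, replicate 0, had C1qa at 4.19 CPM (group median 23.9), C1qb at 4.65 CPM (group median 33.9), C1qc at 1.89 CPM (group median 33.7) and C4b at 40.8 CPM (group median 173.0). Female diaphragm at 6 months, replicate 2, had C1qa at 2.27 CPM (group median 18.7), C1qb at 3.01 CPM (group median 23.0) and C1qc at 1.10 CPM (group median 24.8). Female gastrocnemius at 27 months, replicate 0, had C1qa at 16.6 CPM (group median 6.52), C1qb at 18.9 CPM (group median 9.16) and C1qc at 20.8 CPM (group median 8.41). Male diaphragm at 27 months, replicate 6, had C1qa at 5.87 CPM (group median 27.1) and C1qc at 3.31 CPM (group median 34.8). Male diaphragm at 6 months, replicate 2, had C1qa at 0.914 CPM (group median 15.2), C1qb at 0.783 CPM (group median 20.7), C1qc at 1.70 CPM (group median 21.7), C2 at 8.14 CPM (group median 28.3), C3 at 274.1 CPM (group median 917.8) and C4b at 18.7 CPM (group median 112.0). Male gastrocnemius at 12 months, replicate 7, had C1qa at 10.1 CPM (group median 4.71), C1qc at 14.5 CPM (group median 6.46) and C3 at 190.2 CPM (group median 122.6).

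Replicate 8 of the male 24-month limb groups stood apart in 18 combinations. Male gastrocnemius at 24 months, replicate 8, had C1qa at 27.0 CPM (group median 6.70), C1qb at 42.7 CPM (group median 9.05), C1qc at 29.9 CPM (group median 8.43), C2 at 8.51 CPM (group median 3.28), C3 at 477.2 CPM (group median 133.7) and C4b at 129.4 CPM (group median 29.5). Male soleus at 24 months, replicate 8, had C1qa at 41.6 CPM (group median 7.64), C1qb at 74.4 CPM (group median 10.7), C1qc at 59.5 CPM (group median 11.9), C2 at 13.3 CPM (group median 2.94), C3 at 550.5 CPM (group median 70.5) and C4b at 170.9 CPM (group median 32.3). Male tibialis anterior at 24 months, replicate 8, had C1qa at 20.3 CPM (group median 5.16), C1qb at 35.7 CPM (group median 6.29), C1qc at 26.6 CPM (group median 6.66), C2 at 9.12 CPM (group median 2.69), C3 at 441.3 CPM (group median 110.7) and C4b at 82.3 CPM (group median 12.0).

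Male diaphragm at 27 months, replicate 6, listed above as GC-shifted, was also a liver library. The other libraries with liver transcripts stood apart in 4 combinations. Female soleus at 18 months, replicate 6, had C3 at 283.7 CPM (group median 80.7). Male diaphragm at 21 months, replicate 3, had C3 at 2639 CPM (group median 1109), C4b at 363.8 CPM (group median 139.6) and C6 at 95.2 CPM (group median 1.61).

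The remaining combinations came from other libraries. Male diaphragm at 21 months, replicate 0, had C1qa at 11.8 CPM (group median 22.9). Male gastrocnemius at 27 months, replicate 1, had C1qa at 17.9 CPM (group median 7.13), C1qb at 28.7 CPM (group median 10.03) and C3 at 310.3 CPM (group median 132.0). Female tibialis anterior at 21 months, replicate 6, had C1qb at 2.49 CPM (group median 6.60), C1qc at 3.15 CPM (group median 6.32) and C3 at 73.2 CPM (group median 113.9). Female tibialis anterior at 24 months, replicate 9, had C1qb at 18.6 CPM (group median 6.55), C1qc at 15.0 CPM (group median 6.42) and C3 at 258.6 CPM (group median 131.6). Male soleus at 12 months, replicate 5, had C1qb at 0.969 CPM (group median 8.05). Female gastrocnemius at 18 months, replicate 7, had C1qc at 8.15 CPM (group median 6.77). Female tibialis anterior at 18 months, replicate 6, had C1qc at 2.98 CPM (group median 5.41). Female soleus at 12 months, replicate 7, had C2 at 1.27 CPM (group median 3.66). Male diaphragm at 12 months, replicate 2, had C2 at 50.2 CPM (group median 27.2), C3 at 1633 CPM (group median 1017) and C4b at 322.6 CPM (group median 117.8). Male tibialis anterior at 6 months, replicate 2, had C2 at 3.34 CPM (group median 1.89). Female tibialis anterior at 6 months, replicate 6, had C3 at 52.4 CPM (group median 87.5). Male gastrocnemius at 21 months, replicate 4, had C6 at 2.34 CPM (group median 0.602). Female diaphragm at 24 months, replicate 8, had C7 at 7.52 CPM (group median 12.2). C6 was at 0 in female soleus at 12 months, replicate 7 (group median 0.0872 CPM). It was also at 0 in female soleus at 24 months, replicate 4 (0.0862 CPM). It was also at 0 in male soleus at 18 months, replicate 4 (0.159 CPM). It was also at 0 in male soleus at 24 months, replicate 0 (0.164 CPM). It was also at 0 in male tibialis anterior at 27 months, replicate 0 (0.145 CPM).

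Between groups, the age change of C6 differed by test in 2 contrasts. In diaphragm at 21 months the female minus male difference of its log2 fold change was -3.39 (edgeR adjusted p = 0.0377), which rested on 1 male liver library. Between female diaphragm and gastrocnemius at 27 months the difference was 2.39 (edgeR adjusted p = 0.0463), and all 10 diaphragm libraries at 27 months lay above the 8 at 6 months.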

How the results depend on the processing

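Of the 18 gene, muscle and sex combinations called with age, limma-voom called 11, RLE size factors 18, no expression filter 15, DESeq2 20, no fold limit 19, an adjusted p limit of 0.01 8, Bonferroni adjustment 3, the run of label numbers as a covariate 14 and the liver covariate 15. These are totals and do not say that the same combinations were called. In male diaphragm, with 3 calls, Bonferroni adjustment gave 0, the 0.01 limit 1, limma-voom 1, leaving out liver libraries 5 and DESeq2 5. In male gastrocnemius, with 0, limma-voom gave 1. In male tibialis anterior, with 6, Bonferroni gave 0, the 0.01 limit 1, limma-voom 1 and the run covariate 3. In female diaphragm, with 1, leaving out GC-shifted libraries gave 2. In female gastrocnemius, with 1, Bonferroni gave 0 and no fold limit 2. In female soleus, with 2, Bonferroni and the 0.01 limit gave 0, no filter 1 and the liver covariate 1. In female tibialis anterior, with 5, Bonferroni gave 2. Leaving out single libraries gave 1 to 5 calls in male diaphragm, 0 to 1 in male gastrocnemius, 1 to 6 in male tibialis anterior, 0 to 2 in female soleus and 4 to 6 in female tibialis anterior. The stricter margins gave 5 classed combinations in place of 8. For the sex difference in the age change in diaphragm, limma-voom and leaving out liver libraries, with or without GC-shifted ones, gave 0 calls in place of 1. For the sex difference over all ages in diaphragm these settings gave 1 in place of 2.

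With the replicate number as a block (replicate block), 10 combinations were called, with 0 in male diaphragm, 1 in male gastrocnemius, 1 in male tibialis anterior and 4 in female tibialis anterior, and the sex by age call in diaphragm went to 0. Under the block C4b was at 0.79 (adjusted p = 0.1) in male diaphragm at 27 months, and at 0.57 (adjusted p = 0.0208), under the fold limit, in female gastrocnemius at 24 months. The deviations of same-numbered libraries correlated at -0.166 to 0.306 (median 0.016) over 120 pairs of ages, 19 of them above 0.1, and at -0.084 to 0.401 (median 0.056) over 72 pairs of muscles, 27 of them above 0.1. As not every pair passed 0.1, the numbers were not taken to pair samples. This rule cannot exclude that some same-numbered libraries of different muscles came from 1 mouse. The p-values between muscles took them as independent.

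At 27 months 15 values of uncalled genes changed sign. The run covariate gave 0.02 for C2 in male diaphragm and -0.02 for C1qc and -0.11 for C7 in male gastrocnemius. In male gastrocnemius the liver covariate gave 0.02 for C2 and 0.09 for C3, and RLE and DESeq2 gave 0.02 and no filter 0.01 for C3. In male soleus the block gave -0.02 for C1qc, limma-voom 0.01 and the liver covariate 0.03 for C2, and the liver covariate 0.19 for C6. Limma-voom gave -0.01 for C1qb in male tibialis anterior and, for C6, 0.11 in female gastrocnemius and -0.57 in female soleus. The causes were not tested. At median counts of 3 to 12 per library, C6 in soleus and tibialis anterior was near the limit of detection.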

Other observations

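Of 50 other complement genes listed (initiators, alternative pathway, terminal components, regulators and receptors), the number that rose at some age was 21 of 46 tested in male diaphragm, 8 of 43 in male gastrocnemius, 4 of 41 in male soleus and 9 of 36 in male tibialis anterior. In females it was 0 of 46 in diaphragm, 16 of 41 in gastrocnemius, 2 of 39 in soleus and 15 of 37 in tibialis anterior. At most 1 gene fell in any of these 8 fits, which called 11.0%, 8.06%, 2.85%, 8.53%, 2.95%, 9.44%, 8.52% and 9.25% of all genes in the same order. In male diaphragm at 27 months 0 of 12 initiators, 0 of 5 terminal components and 1 of 16 regulators rose. Of 3 alternative pathway genes 1 rose there, and of 10 receptors 4. Of the 18 liver transcripts 10 rose at some age in this muscle and 0 at 27 months. These counts were not made without the liver libraries.

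The receptor Vsig4, which binds C3 fragments on macrophages, rose in 7 of the 8 fits, female diaphragm being the exception. In female soleus it went from 0.339, 0.579 and 0.887 CPM (lowest, median, highest) at 6 months to 0.661, 1.39 and 3.72 CPM at 27 months, a log2 fold change of 1.48 (SE 0.29, adjusted p = 0.000227). The groups overlapped, but the highest 6-month library lay below the 27-month median. Itgb2, the common chain of complement receptors 3 and 4, rose in 6 fits, and at 27 months in female tibialis anterior by 1.20 (adjusted p = 0.00328). Its alpha chains Itgam and Itgax rose in 3 and 4 fits, and the anaphylatoxin receptors C3ar1 and C5ar1 in 4 each. In female tibialis anterior at 24 months C3ar1 rose by 0.96 (adjusted p = 0.0211) and C5ar1 by 0.77 (adjusted p = 0.03). In male soleus the calls of Itgb2 and C3ar1 were both at 24 months, the group with replicate 8. Of the receptors in male tibialis anterior 6 rose at some age but only 1 at 27 months. There the 10 receptors of replicate 8 summed to 295.4 CPM, against a median of 149.0 CPM in the other 9 libraries at 24 months. The receptors were not fitted without replicate 8.

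Cfb, factor B of the alternative pathway, rose at some age in 5 fits. In male soleus, male tibialis anterior and female gastrocnemius it was not called at 27 months. In replicate 8 at 24 months the 3 alternative pathway genes summed to 149.6 CPM in male soleus and 83.17 CPM in male tibialis anterior. The medians of the other 9 libraries were 23.33 and 9.995 CPM. Cfb was not fitted without replicate 8, so the part of this replicate in its calls in these muscles was not tested. Cfb in female tibialis anterior ran from 1.78 to 3.08 CPM (median 2.48) at 6 months and from 3.03 to 12.9 CPM (median 4.28) at 27 months, a log2 fold change of 1.22 (SE 0.26, adjusted p = 0.0004). Cpn1, the catalytic chain of the carboxypeptidase that inactivates anaphylatoxins, rose in 5 fits and at all 5 older ages in the gastrocnemius of males and the tibialis anterior of both sexes. Cpn1 in male tibialis anterior went from 0.184, 0.377 and 0.5676 CPM at 6 months to 0.784, 1.37 and 2.25 CPM at 27 months without overlap, a log2 fold change of 1.97 (SE 0.20, adjusted p = 6.55e-10). Csmd1, a membrane regulator, rose in 4 fits, by 0.75 (adjusted p = 0.00248) in male tibialis anterior at 27 months.

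Mbl2, Hc (the mouse C5 gene), Cfi, Cfhr2 and Cpn2, which hepatocytes express strongly, were each called in male diaphragm, female gastrocnemius and female tibialis anterior. In male diaphragm at 21 months, which held the library with Alb at 20990 CPM, Hc had a log2 fold change of 5.46 (adjusted p = 0.0443), and in female tibialis anterior at 27 months 4.40 (adjusted p = 0.00069). For Hc no value without the library with Alb at 20990 CPM was taken. In female gastrocnemius 15 of the 17 liver transcripts tested rose at some age, Hc with them by 3.95 (adjusted p = 0.000322) at 18 months. The part of liver transcripts in these changes was not tested.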
